A study of Mus musculus with 8 samples.

Results

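*Jun*, *Junb*, *Jund*, *Fos*, *Fosb*, *Fosl2*, *Atf3*, *Egr1*, *Egr2* and *Ier2* encode AP-1 proteins and other transcription regulators of the immediate early response. They were chosen by name, with earlier results of these data known, and make up 10 of 21866 genes with a protein-coding transcript in GENCODE M21. *Jun*, *Junb*, *Jund* and *Ier2* are intronless, which is unusual for mouse genes, and the other 6 are spliced. AP-1 is a family of dimers, built from JUN proteins alone or from JUN with FOS or ATF proteins, that bind DNA through a basic leucine zipper. Immediate early genes are switched on by growth factors, stress and, in macrophages, bacterial products before any new protein is made, and their mRNAs are short-lived. METTL3 is the catalytic subunit of the complex that writes N6-methyladenosine (m6A) on mRNA, a mark known for its density in long exons and around stop codons.

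The m6A of these mRNAs was profiled in bone marrow-derived macrophages (BMDMs) from 2 WT and 2 KO mice by MeRIP-Seq, in which an m6A antibody enriches methylated RNA fragments, which are then sequenced next to the input RNA. Each mouse gave an m6A IP and an input library, 8 libraries in all, and from these the authors made 1 peak list per mouse, named WT-1 and WT-2 or KO-1 and KO-2 by genotype and mouse. All mice were C57BL/6 and 8 weeks old, and their marrow was grown for 7 days with M-CSF at 40 ng/mL. No further treatment is named for these samples. WT mice were *Mettl3*fl/flLyz2+/+ and KO mice *Mettl3*fl/flLyz2cre/+, so that both carried floxed *Mettl3* and differed in the Cre allele. The Cre is driven by *Lyz2*, a gene of the myeloid lineage. By the paper's account, deletion in these mice extends beyond macrophages, to granulocytes and a part of the dendritic cells.

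WT-1 and WT-2 listed 6159 and 6263 peaks and KO-1 and KO-2 listed 6378 and 6684, each with a position, a strand and the score of a peak caller. Read numbers are not part of the lists and library depth is unknown, so what was compared is where a peak was listed and how many bases it covered. Scores mostly stop at 3100, a value reached by 10.3% (WT-1) and 13.5% (WT-2) against 16.2% (KO-1) and 19.5% (KO-2) of the peaks. A score was therefore read only within its own list. The lists look like a selection from more calls, since the highest number in a peak's name was 62325 (WT-1) and 35683 (WT-2) against 74162 (KO-1) and 85462 (KO-2), and no listed peak was narrower than 300 bp. How peaks were selected is not given in the sources used here. Listed peaks also tend to stop where exons do. An end exactly at an exon edge was found for 43.1% (WT-1) and 43.5% (WT-2) against 47.1% (KO-1) and 51.5% (KO-2) of the peaks, whereas 0.682% to 0.910% had an end 1 base off an edge. In bulk RNA, fewer cells with a transcript, less of it per cell and less m6A per molecule cannot be told apart from such lists. A gene without a listed peak may still carry m6A or a call that was not listed.

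The deleted gene and the cell type could not be checked from the peaks. *Mettl3* itself was without a listed peak. Of 8 macrophage markers, 3 had a peak in any list (*Mrc1*, *Cd14* and *Mertk*), and *Mertk* had one in all 4. *Adgre1*, *Csf1r*, *Cd68*, *Itgam* and *Lyz2* had none, although BMDMs are known to express them. Among markers of other cells, 1 of 4 T cell genes (*Cd4*), 0 of 3 B cell genes, 0 of 4 neutrophil genes, 0 of 2 dendritic cell genes and 2 of 3 fibroblast genes (*Col1a1* and *Pdgfra*) had a peak in any list. *Col1a1* had its peak in KO-1, *Cd4* in WT-1 and WT-2, and *Pdgfra* in every list but WT-2, and the part of such transcripts in the results was not tested.

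Across the 10 genes, peaks were listed on 7 and on none of *Junb*, *Jund* and *Fosb*. *Jun*, *Fosl2*, *Atf3* and *Ier2* had a peak in all 4 lists, 4 of 10 genes beside 9.72% of all protein-coding genes. The 3 genes without any peak stand beside 68.1% of all genes. Shares of all genes, here and below, refer to every annotated protein-coding gene, whether or not BMDMs express it. *Fos* and *Egr1* had peaks in every list but WT-1, and *Egr2* in WT-1. When each list was reduced to its 50% top-scoring peaks, 2 of the 10 genes, *Jun* and *Atf3*, had a peak in all 4 lists, beside 4.81% of all genes, and 2 of their 10 regions did, beside 16.8% of 6400 regions.

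**Figure D1:**
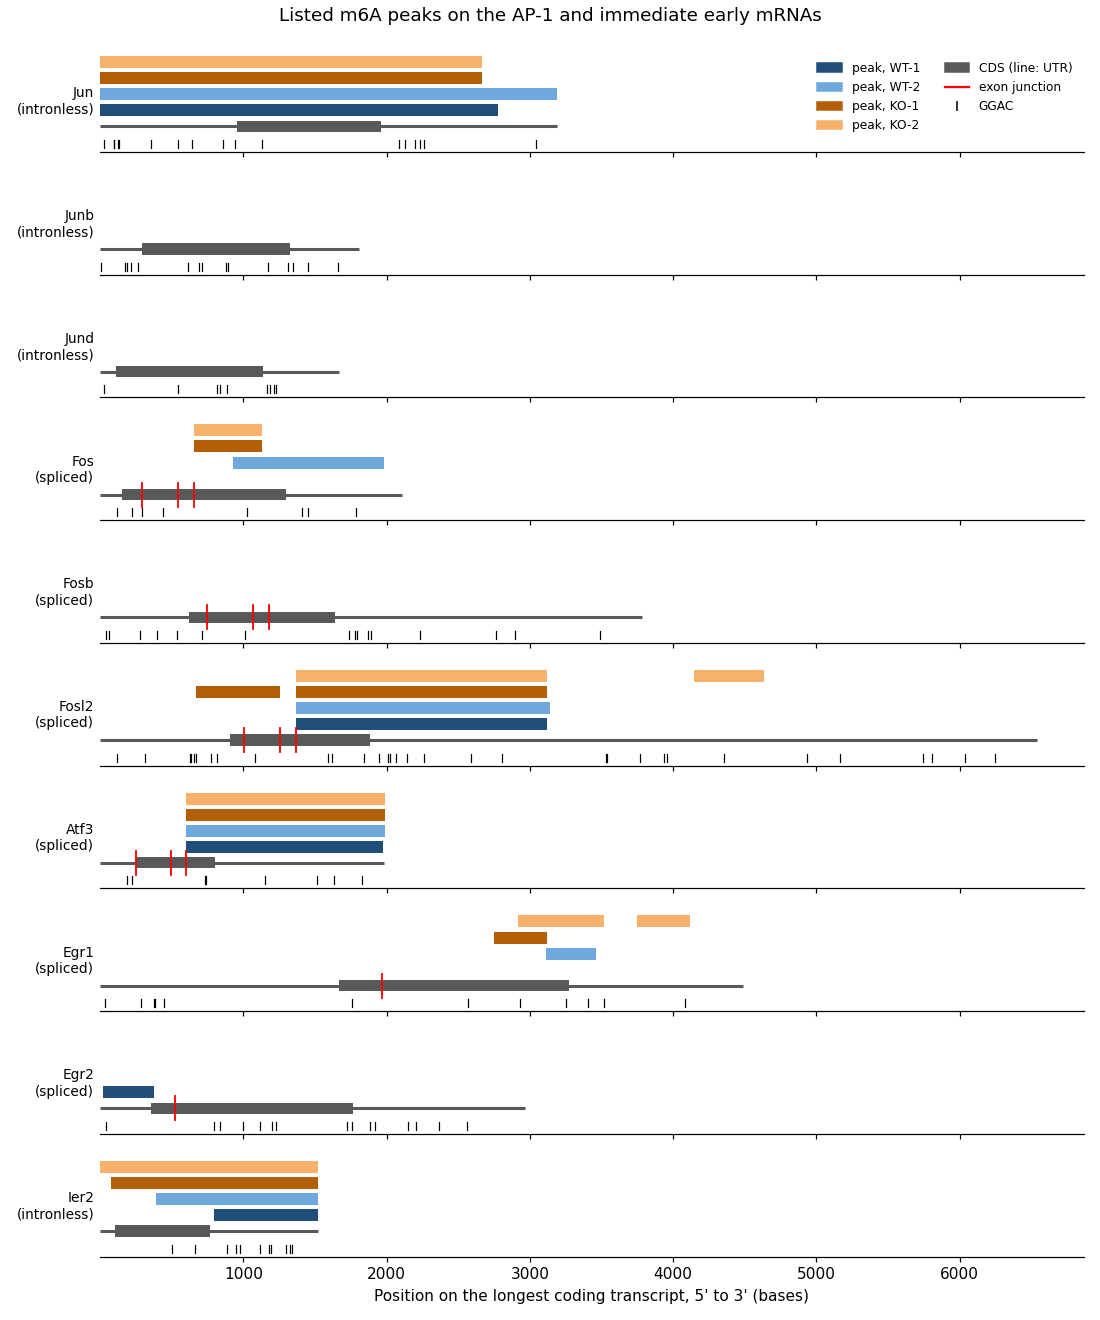
Peaks of the 4 lists on the longest coding transcript of each of the 10 genes, drawn to one scale in bases from the 5′ end (left). Grey boxes are CDS, grey lines UTR, red ticks exon junctions and black ticks GGAC. *Jun* was covered from its first base in every list, the *Atf3* peaks and the main *Fosl2* peaks begin at the last exon, and *Junb*, *Jund* and *Fosb* had no peak.

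*Jun* encodes the central AP-1 subunit. The gene is a single exon of 3189 bases on the minus strand (chr4:95049034-95052222, GRCm38), with a 5′-UTR of 951, a CDS of 1005 and a 3′-UTR of 1233 bases. Each list held 1 peak on it, and all 4 peaks began at 95052222, the first transcribed base. They ended at 95049446 (WT-1) and 95049036 (WT-2) or 95049561 (KO-1) and 95049562 (KO-2), which is inside the 3′-UTR in each case. The whole 5′-UTR and the whole CDS were thus under a peak in all 4 mice. Of genes with a peak in all 4 lists, 0.767% had a 5′-UTR covered in this way and 0.941% a CDS covered in this way. Of the 4 such genes described here, *Jun* alone met either criterion.

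The peak took 87.1% (WT-1) and 99.9% (WT-2) against 83.5% (KO-1) and 83.4% (KO-2) of the *Jun* transcript. Both WT lists were above both KO lists, and the KO peaks ended within 1 base of each other. WT BMDMs averaged 93.5% ± 9.09 and KO BMDMs 83.5% ± 0.0222, each as mean ± SD with n = 2 (exact permutation test, two-sided p = 0.33, which is the smallest p that 2 lists against 2 can give). The whole difference lies at the 3′ end of the 3′-UTR. By mean share, *Jun* ranked 15 among the 2125 genes with a peak in all 4 lists. Its score was 3100 in each list, as was that of *Atf3*, so that 2 of the 4 genes with a peak in every list reached this score in every list, beside 13.7% of the 2125 genes.

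*Junb* and *Jund* encode the other JUN subunits and are also single exons, of 1809 bases on the minus strand (chr8:84976910-84978718) and 1668 bases on the plus strand (chr8:70698949-70700616). Neither had a peak in any list. GGAC, the core of the sequence that METTL3 methylates, was counted on the transcript strand only. *Junb* held 15 GGAC, or 8.29 per kb, and *Jund* held 9, or 5.40 per kb. *Jun* held 17, or 5.33 per kb, and the median of all coding transcripts was 3.94 per kb. The JUN mRNA with the most GGAC per base was thus one without a peak. In *Jun* 10 of the 17 lie in the 5′-UTR, 1 in the CDS and 6 in the 3′-UTR, whereas *Junb* has 7 and *Jund* 4 in the CDS.

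The ends of the 3 JUN coding sequences encode the basic leucine zipper and show how alike the genes are where they can be aligned. The last 240 coding bases with the stop codon are given below in GRCm38 from 5′ to 3′ on the transcript strand, with GGAC in capitals. *Jun* and *Jund* hold 0 GGAC there and *Junb* holds 2, and 67.2% of coding windows of this length hold at least 1. Identity over aligned columns was 68.3% for *Jun* and *Junb*, 74.6% for *Jun* and *Jund* and 74.2% for *Junb* and *Jund*. The *Jun* stretch was under a peak in all 4 lists and the other 2 were under none.
*Jun*, chr4:95050267-95050506, minus strand: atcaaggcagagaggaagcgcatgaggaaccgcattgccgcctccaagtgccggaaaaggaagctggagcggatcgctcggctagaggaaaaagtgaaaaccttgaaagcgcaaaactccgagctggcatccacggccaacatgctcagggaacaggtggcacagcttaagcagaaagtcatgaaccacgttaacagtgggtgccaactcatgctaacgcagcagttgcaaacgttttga
*Junb*, chr8:84977395-84977634, minus strand: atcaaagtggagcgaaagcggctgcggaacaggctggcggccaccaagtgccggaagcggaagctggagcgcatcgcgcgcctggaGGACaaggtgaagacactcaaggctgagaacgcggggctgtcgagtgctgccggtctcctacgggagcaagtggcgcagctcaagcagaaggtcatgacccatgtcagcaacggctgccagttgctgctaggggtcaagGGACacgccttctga
*Jund*, chr8:70699844-70700083, plus strand: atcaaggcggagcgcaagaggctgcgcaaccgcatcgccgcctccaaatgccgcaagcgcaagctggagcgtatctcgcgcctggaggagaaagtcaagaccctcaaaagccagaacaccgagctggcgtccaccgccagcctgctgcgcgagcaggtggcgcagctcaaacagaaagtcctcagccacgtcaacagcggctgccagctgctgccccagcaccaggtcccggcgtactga

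*Fos*, *Fosb* and *Fosl2* encode FOS proteins, which bind DNA as partners of JUN. Each has 4 exons. *Fosb* (chr7:19302696-19310051, minus strand) had no peak, although its transcript of 3782 bases holds 16 GGAC, or 4.23 per kb. *Fos* and *Fosl2* had peaks, and they differed in how far the lists placed them alike.

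*Fos* (chr12:85473890-85477273, plus strand) had no peak in WT-1. In WT-2 the peak ran from 85476091 to 85477143, over 368 bases of CDS and 685 bases of 3′-UTR, with a score of 591.67. In KO-1 and KO-2 it ran from 85475817 to 85476295, with scores of 424.28 and 1463.25. The KO peaks had the same ends in both mice, lay wholly in the CDS and began at the first base of the last exon, while the WT-2 peak reached across the stop codon. The share of the transcript was 0% (WT-1) and 49.95% (WT-2) against 22.7% (KO-1) and 22.7% (KO-2), so the KO lists lay between the WT lists. WT BMDMs averaged 24.98% ± 35.3 and KO BMDMs 22.7% ± 0, each as mean ± SD with n = 2 (exact permutation test, two-sided p = 1). With the 50% top-scoring peaks, 1 list (KO-2) held a *Fos* peak.

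The 3 *Fos* peaks share 205 bases, all coding, which are given because they are the part of *Fos* that every list with a *Fos* peak holds. They contain 1 GGAC, in capitals, and 61.5% of coding windows of this length hold at least 1.
*Fos*, chr12:85476091-85476295, plus strand: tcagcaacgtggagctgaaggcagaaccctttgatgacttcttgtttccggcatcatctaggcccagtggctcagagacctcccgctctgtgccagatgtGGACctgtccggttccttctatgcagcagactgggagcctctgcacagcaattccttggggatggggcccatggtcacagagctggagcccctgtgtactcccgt

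*Fosl2* encodes FRA2, a FOS protein without the strong activation domain of FOS. Its transcript of 6537 bases (chr5:32135801-32157842, plus strand) was the longest of the 10. All 4 lists held a peak that began at 32152671, the first base of the last exon, and ended at 32154420 (WT-1) and 32154441 (WT-2) or 32154426 (KO-1) and 32154426 (KO-2). The lists thus placed this peak almost alike, and 1750 bases were shared by all lists, 519 of them coding and 1231 in the 3′-UTR. Scores were 183.45 (WT-1) and 482.78 (WT-2) against 1417.51 (KO-1) and 739.73 (KO-2). In the same order, 19.5%, 38.2%, 70.4% and 48.2% of a list's peaks scored the same or lower, so the main *Fosl2* peak was among the lower-scoring peaks in both WT lists and in KO-2.

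The KO lists held further *Fosl2* peaks that did not recur between the KO mice. KO-1 had one at 32136472 to 32136805, over the end of the 5′-UTR and the first 102 coding bases, with a score of 2734.48. It had another at 32146647 to 32147076, over 252 coding bases and 178 bases outside the exons of this transcript, the single such case among the 27 peaks of the 10 genes. KO-2 had one at 32155453 to 32155936 in the 3′-UTR. The share of the transcript was 26.8% (WT-1) and 27.1% (WT-2) against 35.8% (KO-1) and 34.3% (KO-2). Both KO lists were above both WT lists, but through different peaks. WT BMDMs averaged 26.9% ± 0.227 and KO BMDMs 35.05% ± 1.10, each as mean ± SD with n = 2 (exact permutation test, two-sided p = 0.33).

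*Atf3* encodes a stress-induced repressor of inflammatory genes that pairs with JUN proteins. The gene (chr1:191170296-191218039, minus strand) has 4 exons, and its last exon holds 1384 of its 1984 transcript bases. The peaks of all lists but WT-1 were this exon from its first to its last base (191171679 to 191170296), and the WT-1 peak began at the same first base and stopped a little short of the 3′ end, at 191170310. All 4 scores were 3100. The share of the transcript was 69.1% (WT-1) and 69.8% (WT-2) against 69.8% (KO-1) and 69.8% (KO-2), with no separation of the genotypes (69.4% ± 0.499 for WT and 69.8% ± 0 for KO, SD, n = 2 each, exact permutation test, two-sided p = 1). At least 95% of the last exon was covered in every list for 1 of the 2 spliced genes with a peak in all 4 lists, beside 2.15% of all such spliced genes. Of the 8 GGAC of *Atf3*, 6 lie in the last exon under these peaks.

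The coding part of the last *Atf3* exon, 198 bases up to the stop codon, encodes part of the leucine zipper and was under the peak of every list. It holds 2 GGAC that follow each other directly, in capitals, and 60.3% of coding windows of this length hold at least 1.
*Atf3*, chr1:191171482-191171679, minus strand: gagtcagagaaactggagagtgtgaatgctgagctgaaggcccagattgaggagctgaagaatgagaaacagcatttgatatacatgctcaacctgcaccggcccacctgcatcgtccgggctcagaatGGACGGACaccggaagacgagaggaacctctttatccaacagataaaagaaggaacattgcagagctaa

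*Ier2* encodes a small nuclear protein induced by growth factors. It is a single exon of 1522 bases on the minus strand (chr8:84661331-84662852), with 101 bases of 5′-UTR, 666 of CDS and 755 of 3′-UTR. All 4 peaks ended at 84661331, the last transcribed base, and began at different points nearer the 5′ end: 84662058 (WT-1) and 84662463 (WT-2) or 84662775 (KO-1) and 84662852 (KO-2). The WT-1 peak was thus wholly in the 3′-UTR, the WT-2 peak took in 378 coding bases, and both KO peaks took in the whole CDS.

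The share of the *Ier2* transcript under the peak was 47.8% (WT-1) and 74.4% (WT-2) against 94.9% (KO-1) and 100% (KO-2). Both KO lists were above both WT lists, and the WT lists differed from each other by more than the KO lists did. WT BMDMs averaged 61.1% ± 18.8 and KO BMDMs 97.5% ± 3.58, each as mean ± SD with n = 2, a difference of 36.3 percentage points (exact permutation test, two-sided p = 0.33). Scores were 204.6 (WT-1) and 1526.05 (WT-2) against 551.32 (KO-1) and 806.28 (KO-2), and in the same order 22.1%, 71.4%, 47.8% and 50.7% of a list's peaks scored the same or lower. By this standing within its own list the peak was lowest in WT-1 and highest in WT-2, with the KO lists between them, and among the 50% top-scoring peaks it was held by WT-2 and KO-2.

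The last 728 bases of *Ier2*, all of them 3′-UTR, were under a peak in all 4 mice and hold 9 of the 11 GGAC of the transcript. At 7.23 per kb *Ier2* came after *Junb* in GGAC per base. The 9 sites are given in transcript order, each as the 21 bases around GGAC (in capitals) on the transcript strand of GRCm38. They were picked for the motif, so their number against other windows was not compared, and a match does not show a methylated base.
*Ier2*, chr8:84661955-84661975, minus strand: caggggaaGGACtgaggagcg
*Ier2*, chr8:84661893-84661913, minus strand: ctattaaaGGACtgtcccttc
*Ier2*, chr8:84661865-84661885, minus strand: tggagaagGGACacctagatc
*Ier2*, chr8:84661731-84661751, minus strand: gcgtcatgGGACagacgcggg
*Ier2*, chr8:84661667-84661687, minus strand: cagggtgtGGACccgccctag
*Ier2*, chr8:84661654-84661674, minus strand: cgccctagGGACtgggaagtg
*Ier2*, chr8:84661548-84661568, minus strand: agaccccgGGACtggtcaacc
*Ier2*, chr8:84661517-84661537, minus strand: cctggcgtGGACcaccgcggg
*Ier2*, chr8:84661506-84661526, minus strand: ccaccgcgGGACgggtgggcc

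*Egr1* and *Egr2* encode zinc finger transcription factors, and EGR2 is also known for its role in T cell anergy. *Egr1* has 2 exons and 4484 transcript bases, and all of its peaks lay in the last exon. It had no peak in WT-1. WT-2 held one from 34863611 to 34863960 (score 371.37), KO-1 one from 34863248 to 34863620 (score 961.74), and KO-2 one from 34863418 to 34864013 (score 577.35) and one from 34864247 to 34864616 (score 948.17). The WT-2 peak and the first KO-2 peak crossed the stop codon, the KO-1 peak lay wholly in the CDS and the second KO-2 peak wholly in the 3′-UTR, and 10 bases were common to the 3 lists. The share of the transcript was 0% (WT-1) and 7.81% (WT-2) against 8.32% (KO-1) and 21.5% (KO-2). The KO lists were above the WT lists, with WT-2 and KO-1 close together and KO-2 set apart by its second peak. WT BMDMs averaged 3.90% ± 5.52 and KO BMDMs 14.9% ± 9.35, each as mean ± SD with n = 2 (exact permutation test, two-sided p = 0.33).

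*Egr2* (chr10:67535475-67542188, plus strand, 2 exons) had a single peak, in WT-1, from 67537884 to 67538244 with a score of 1317.95. It covered 337 bases of 5′-UTR and 24 coding bases, so it is not in the last exon, unlike every *Fos*, *Atf3* and *Egr1* peak. It took 12.2% of the transcript of 2965 bases. *Egr2* holds 15 GGAC, or 5.06 per kb, and 1 of them was under the peak.

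In the paper, the loss of *Mettl3* mRNA in KO BMDMs was partial, and the m6A level of their mRNA was lower than in WT BMDMs. The comparison of KO with WT BMDMs over all 10 genes asks whether peaks were lost with this reduction. These genes had 5 peaks (WT-1) and 6 peaks (WT-2) against 8 (KO-1) and 8 (KO-2). Both KO lists held more than both WT lists, and the KO lists were also longer as a whole. As a share of the list, these peaks were 0.0812% (WT-1) and 0.0958% (WT-2) against 0.125% (KO-1) and 0.1197% (KO-2). WT BMDMs averaged 5.5 ± 0.707 and KO BMDMs 8 ± 0, each as mean ± SD with n = 2, a difference of 2.5 (exact permutation test, two-sided p = 0.33). When every list was cut to its 6159 top-scoring peaks, the difference was again 2.5. This cut removed no peak of these genes, so it cannot test the effect of list length. At the lowest-scoring peak of these genes, 30.4% (WT-2), 39.9% (KO-1) and 41.3% (KO-2) of a list's peaks scored the same or lower. Beyond the genes with a peak in WT-2, which were the same 6, KO-1 held 2 more peaks on *Fosl2*, and KO-2 held 1 more on *Fosl2* and 1 more on *Egr1*. The bases under peaks were 6986 (WT-1) and 8878 (WT-2) against 8863 (KO-1) and 9252 (KO-2). WT-1 stood below the other lists, and WT-2 and KO-1 were almost equal. The difference of 1125.5 bases (exact permutation test, two-sided p = 0.667) was 179.5 without WT replicate 1 and 572.5 without *Ier2*, an alternative chosen after seeing the data.

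In the full lists, no gene of the 10 had a peak in both lists of a genotype and in neither of the other. The 0 of 10 with peaks in WT alone stand beside 1.27% of all genes, and the 0 of 10 with peaks in KO alone beside 1.56%. This depended on the score. With the 50% top-scoring peaks, 2 of 10, *Fosl2* and *Egr1*, had a peak in both KO lists and neither WT list, beside 0.837% of all genes, and 0 of 10 had the reverse, beside 0.631%. In each of these 2 genes the peaks kept in KO-1 and in KO-2 did not overlap. These counts were chosen after seeing the data. Among all listed peaks, those that overlapped by at least 1 bp were joined into 11 regions on these genes. Of these, 4 had a peak in all 4 lists (*Jun*, *Fosl2*, *Atf3* and *Ier2*, 1 each), beside 17.8% of 12350 regions overall. None was in both WT lists and neither KO list, beside 3.32%, and none in both KO lists and neither WT list, beside 6.19%. The share of the transcript was higher in both KO lists for 3 of the 7 genes with a peak (*Fosl2*, *Egr1* and *Ier2*), beside 18.5% of the 6971 genes with any listed peak. It was higher in both WT lists for 1 of 7, *Jun*, beside 8.52%.

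**Figure D2:**
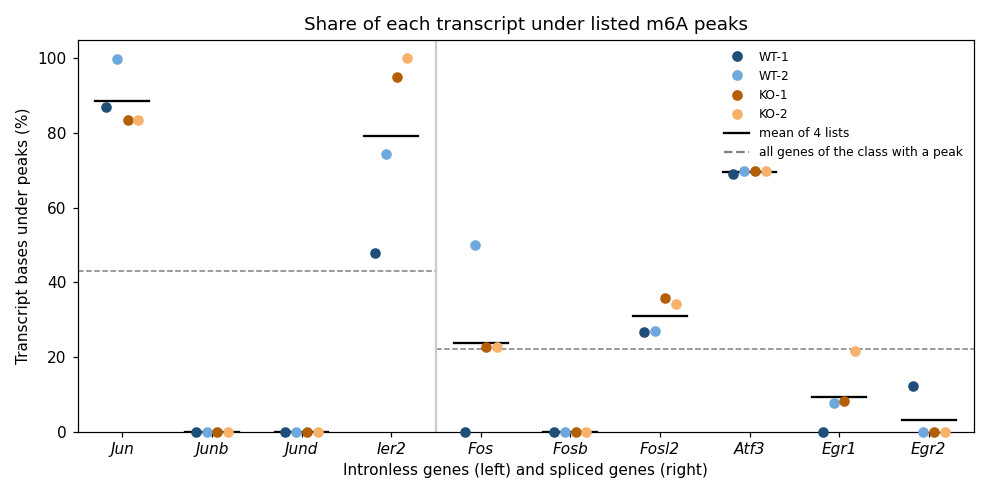
Transcript bases under listed peaks, in percent (vertical axis), for the intronless genes (left) and the spliced genes (right), with 1 point per list, blue for WT and orange for KO. Black bars are means of the 4 lists and dashed lines the mean of all genes of the class with a peak. *Jun* and *Ier2* stood at 47.8% or more in every list, *Junb*, *Jund* and *Fosb* at 0, and *Atf3* near 69.6%, the highest of the spliced genes.

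Intronless and spliced genes were compared next. On the intronless genes *Jun* and *Ier2* a peak took between 47.8% and 100% of the mRNA, and on the spliced genes peaks mostly stayed in the last exon. Of the 27 peaks, 8 were on *Jun* and *Ier2*, and each of these had an end at the edge of the exon, which is the edge of the gene. The other 19 were on spliced genes. Of these, 16 lay mostly in the last exon, 12 had an end at an exon edge, and 10 began at the first base of the last exon. With *Junb*, *Jund* and *Fosb* counted at 0, the mean share of the transcript was 33.7% (WT-1) and 43.6% (WT-2) against 44.6% (KO-1) and 45.9% (KO-2) for the 4 intronless genes. For the 6 spliced genes it was 18% (WT-1) and 25.8% (WT-2) against 22.8% (KO-1) and 24.7% (KO-2). The intronless mean was above the spliced mean in every list, by 19.1 ± 2.87 percentage points (SD, n = 4 lists). By list it was 15.7 (WT-1) and 17.8 (WT-2) against 21.8 (KO-1) and 21.1 (KO-2) points higher, more in both KO lists than in both WT lists. Genes are not replicates and were not drawn at random, so the difference between the classes has no test.

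The intronless mean comes from *Jun* and *Ier2*, since *Junb* and *Jund* had no peak, and 2 of 4 intronless and 2 of 6 spliced genes had a peak in every list. Over the whole annotation, with 1481 intronless and 20385 spliced genes, 2049 of the 2125 genes with a peak in every list were spliced. Among those of the 10 genes with a peak, the mean share was 83.9% ± 11.1 (SD, n = 4 lists) for the intronless and 36.5% ± 1.89 for the spliced genes. Over all protein-coding genes with a listed peak it was 43.1% ± 3.13 for intronless and 22.1% ± 1.32 for spliced genes (SD, n = 4 lists). Among genes with a peak, the same order was thus found in the whole lists. For the mean that also counts genes without a peak, no value over the whole annotation was calculated. The difference between the classes on that measure therefore stands without a background. Intronless transcripts with a peak were shorter, with a median of 2524 bases against 4179 in WT-1. When the share of the last exon was used for the spliced genes in place of that of the whole transcript, the difference among the 10 genes was 10.7 points, an alternative chosen after seeing the data. A peak was listed on 10.96% ± 0.857 of 1481 intronless and 20.2% ± 0.609 of 20385 spliced genes (SD, n = 4 lists), so a smaller share of annotated intronless genes had a peak at all. Both classes include genes that BMDMs may not express, and the part of expression in this difference was not tested.

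On the spliced genes, the last exon held 89.6% (WT-1) and 100% (WT-2) against 87.2% (KO-1) and 100% (KO-2) of the bases under peaks. The bases outside it were those of *Egr2* in WT-1 and of the further *Fosl2* peaks in KO-1. Over all spliced genes with a peak the last exon held 68.2% (WT-1) and 70.9% (WT-2) against 64.3% (KO-1) and 67.0% (KO-2). The spliced genes described here were above the whole list in each case. Over all spliced genes with a peak, the last exon made up 54.9% to 56.0% of the transcript bases, depending on the list. It was 5172 of 6537 bases in *Fosl2*, 1457 of 2108 in *Fos* and 1384 of 1984 in *Atf3*. In *Egr1* it was 2520 of 4484 bases and in *Egr2* 2444 of 2965. The part of last exon length in the higher share was not tested.

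By region of the mRNA, the CDS held 24.99% (WT-1) and 29.6% (WT-2) against 41.4% (KO-1) and 34.8% (KO-2) of the bases under the peaks of the 10 genes. Over all peaks it held 51.6% (WT-1) and 49.4% (WT-2) against 56.0% (KO-1) and 53.2% (KO-2). The KO lists were above the WT lists in both, and the 10 genes were below the whole list in each. The 5′-UTR held 18.4% (WT-1) and 10.7% (WT-2) against 13.9% (KO-1) and 11.4% (KO-2), compared with 2.66% to 3.69% over all peaks. Most of these 5′-UTR bases were those of *Jun*, with *Egr2* in WT-1, *Fosl2* in KO-1 and *Ier2* in both KO lists.

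With bases pooled over genes, GGAC was denser under the peaks than in the rest of the same transcripts. Within single genes the reverse was found for *Fos* in KO-1 and KO-2 and for *Egr2* in WT-1. In the genes with a peak, there were 6.16 GGAC per kb under peaks and 4.34 elsewhere for WT-1, then 5.74 and 3.38 for WT-2, 5.64 and 3.50 for KO-1, and 5.40 and 3.59 for KO-2. The ratio was above 1 in every list, at 1.56 ± 0.123 (SD, n = 4 lists), beside 1.29 ± 0.0282 for all genes with a peak. For the spliced genes alone it was 1.28 ± 0.137, close to that of all genes. Restricted to the 200 central bases of each peak, the ratio for intronless and spliced genes together was 1.11. Between genes, density did not follow the presence of a peak: the 7 genes with a peak held 4.52 GGAC per kb and the 3 without held 5.51.

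The genes most like *Jun* in the share of the transcript under peaks, over the 4 lists and among 2121 other genes with a peak in all of them, were *Isg15*, *Tlr2*, *Tlr8*, *Cd180* and *Nfil3*. *Isg15* encodes an interferon-induced ubiquitin-like protein, *Tlr2* and *Tlr8* encode Toll-like receptors, *Cd180* a Toll-like receptor homologue, and *Nfil3* a basic leucine zipper repressor. Their mean absolute difference from *Jun* was between 5.03 and 6.57 percentage points. *Tlr2* had 83.5% of its 3014 bases under peaks in each list, and *Isg15* 85.1% of its 756 bases. All 5 are spliced genes, so a peak over most of an mRNA was not limited to intronless genes.

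Of 64 other AP-1, ATF, MAF, EGR, KLF, NR4A, ETS, JNK pathway and immediate early genes, all 64 were found in the annotation (*Cyr61* and *Ctgf* as *Ccn1* and *Ccn2*). A peak in all 4 lists was found for 21, beside the 9.72% of all genes, in 3 lists for 5, in 2 for 10, in 1 for 14 and in none for 14. With the 50% top-scoring peaks, 10 of the 64 had a peak in all 4 lists, beside 4.81% of all genes. Those of the 21 with the highest mean share included *Nfil3* (87.9% ± 1.999, SD, n = 4 lists), *Maf* (59.2% ± 10.1), *Ppp1r15a* (58.3% ± 9.53), *Jdp2* (54.5% ± 12.6), *Mafk* (50.02% ± 20.6), *Batf* (46.7% ± 12.6) and *Gadd45a* (43.8% ± 1.75). *Maf* and *Mafk* encode basic leucine zipper factors, MAF being a regulator of macrophage identity, and *Jdp2* and *Batf* encode partners of JUN. *Ppp1r15a* and *Gadd45a* are stress-response genes. Apart from *Nfil3*, these named genes had a lower mean share than *Jun* and *Ier2*.

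The intronless genes among the 64 included *Maf*, *Ier5* and *Ier5l*. *Maf* had 59.9% (WT-1) and 44.6% (WT-2) against 65.8% (KO-1) and 66.3% (KO-2) of its transcript under peaks. Both KO lists were above both WT lists. *Ier5*, a relative of *Ier2*, had 42.5% (WT-1) and 42.1% (WT-2) against 0% (KO-1) and 45.6% (KO-2), and *Ier5l* had no peak. These intronless genes thus again held both wide peaks and none.

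A peak in both WT lists and neither KO list was found for 2 of the 64 genes, beside the 1.27% of all genes. *Tob1*, an antiproliferative gene, had 44.9% of its transcript under a peak in WT-1 and 39.7% in WT-2, and *Mapk9*, which encodes the JUN kinase JNK2, had 15.1% in WT-1 and 11.2% in WT-2. The reverse was found for 1 gene, *Ccn1*, a matrix protein gene, with 18.8% in KO-1 and 37.8% in KO-2, beside the 1.56% of all genes. These calls depended on the score. With the 50% top-scoring peaks, *Tob1* and *Mapk9* had no peak and *Ccn1* had one in KO-2 alone, 1 of the 64 genes (*Crem*, with a peak in all 4 full lists) had peaks in both WT lists and neither KO list, beside the 0.631% of all genes, and 0 of 64 had the reverse, beside the 0.837%, counts chosen after seeing the data. In the full lists, the share was higher in both KO lists for 11 of the 50 genes with a peak (18.5% of all genes with a peak) and in both WT lists for 7 of the 50 (8.52%). Of the other JNK pathway genes, chosen after their values were seen, *Map2k4* had a peak in all 4 lists, *Mapk8* in KO-2, *Map2k7* in WT-2 and *Mapk10* in none.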

How the data were processed

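The authors called m6A peaks for each mouse from its IP and input library and deposited 1 list per mouse, with a score for each peak. The submitters' processing notes name cutadapt 1.9.3, HISAT2 2.0.4 and mm10; the peak caller and its settings are not given in the sources used here. The number of peaks limits precision, since read depth is unknown. Starts were converted to 1-based positions. Peaks were assigned by the largest same-strand overlap with exons of protein-coding transcripts (GENCODE M21, GRCm38), of at least 1 bp. Shares refer to the coding transcript with the most exonic bases. Genotypes were compared by exact permutation of the 4 lists (6 labellings, two-sided); 2 against 2 cannot go below p = 0.33. Members and gene lists were chosen with earlier results of these data known. All 10 genes are named; of the 64 related genes, the intronless ones, the 8 with the largest mean share among those with a peak in all lists, and those with peaks in both lists of 1 genotype alone; and the 5 genes nearest to *Jun* in share. Some results under this rule are not reported here. Coverage of whole 5′-UTRs, CDS and last exons, scores of 3100 in every list and, for the 50% top-scoring peaks, backgrounds and genes of 1 genotype alone were counted after seeing the data. Functions were tested on simulated peaks. Alternatives covered score, assignment, overlap, transcript class, motif and each list left out. Python 3.11.15, numpy 2.4.6, Biopython 1.88 and matplotlib 3.10.9 were used.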

Additional observations from a re-analysis of the deposited data

How the results depend on the processing

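Among the alternative values of the main results, 84 stayed within the spread of the lists, within 1.5 times a count or on the same side of the test, and 25 moved. With the 50% top-scoring peaks, and so with shorter lists, 2 of the 10 genes and 2 of their regions had a peak in all 4 lists, beside 4.81% of all genes and 16.8% of all regions, the GGAC ratio was 1.74, and 10 of 64 related genes had a peak in all 4 lists. *Fos* then had a peak in KO-2, *Ier2* in WT-2 and KO-2, and *Fosl2* and *Egr1* each in KO-1 and KO-2, so that 2 of the 10 genes had peaks in both KO lists and neither WT list, where the full lists gave 0. Of the 64 related genes, 1 (*Crem*) had peaks in WT alone, where the full lists gave 2 (*Tob1* and *Mapk9*), and 0 in KO alone, where they gave 1 (*Ccn1*). These counts by genotype were chosen after seeing the data. When 1 list was omitted, so that the other list alone stood for its genotype, regions in WT alone ranged from 0 to 1 (1 without WT replicate 2, on *Egr2*) and regions in KO alone from 0 to 2 (2 without WT replicate 2, KO replicate 1 or KO replicate 2). Without WT replicate 2, 1 gene (*Egr2*) had a peak in WT alone and 2 genes (*Fos* and *Egr1*) in KO alone. The share of all regions and of all genes with 1 list omitted was not counted. Of the related genes, those in WT alone were 9 without WT replicate 1, 5 without WT replicate 2, 2 without KO replicate 1 and 4 without KO replicate 2, and those in KO alone were 3, 2, 3 and 3 in the same order. *Tob1*, *Mapk9* and *Ccn1* were among them each time. These counts too stand without the share of all genes, and the shares for 2 lists against 2 do not apply to them. The difference in bases under peaks ranged from 179.5 without WT replicate 1 to 2071.5 without WT replicate 2. The GGAC ratio was 1.23 for GAC and 1.11 in the central 200 bp of the peaks. The difference between intronless and spliced genes was 29.0 points with bases pooled over genes. Chosen after seeing the data, it was 47.4 for genes with a peak and 10.7 with spliced genes measured by their last exon. The cause of these changes was not tested.

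The study used littermates as controls, but no source states that a replicate number stands for a litter or batch. The numbers in the names of the deposited lists lie close together for WT-1 and KO-1 and for WT-2 and KO-2. Deviations of same-numbered lists had a correlation of 0.00733 over 12350 regions. With a replicate block the differences were 2.5 peaks and 1125.5 bases, each with p = 0.5 (exact sign-flip test, the smallest that 2 pairs allow).

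With 2 mice in a genotype and read depth unknown, a missing call and missing m6A cannot be told apart, and the exact permutation test of 2 lists against 2 gives no p below 0.33. Scores stop mostly at 3100 and ends often fall at exon edges, so neither the height nor the true extent of the *Jun* and *Atf3* peaks can be read. Listed peaks at exon edges, transcript length and intronless structure cannot be told apart in the share of the transcript.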
